A study of Mus musculus with 22 samples.

Results

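The pan-reactive astrocyte genes are a set that rises in astrocytes after several kinds of injury, and 8 of them were followed here: Lcn2, Steap4, S1pr3, Cd44, Osmr, Cp, Serpina3n and Aspg. Their probes were found by gene symbol, and they are 8 of the 22485 genes that the array annotation names. The 8 genes had 12 probes, 4 for Cd44, 2 for Cp and 1 for each of the others, and each gene was represented by its probe with the highest mean over all samples. Transcripts were measured in 22 samples of cells sorted from the cortex of C57BL/6 mice aged 15 to 18 months. One genotype was APPswe/PS1dE9 (APP/PS1), which carries mutant APP and presenilin 1 transgenes under prion promoter control and forms amyloid plaques. The other was wild-type littermates (WT). Microglia were sorted as CD11b+ and CD45+ cells, with 7 APP/PS1 and 7 WT samples. Astrocytes were sorted as GLT1+ and CD11b- cells, with 4 APP/PS1 and 4 WT samples. All mice were perfused, all tissue was dissociated with papain, and myelin and O4+ cells were removed from both populations, per the labels.

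Reactive astrocytes are the state that astrocytes take up near injury, inflammation or plaques. Cytokines of the interleukin 6 family, such as oncostatin M, act through the shared receptor chain gp130 and the transcription factor STAT3, and this route is known to induce several of the genes. Some of the 8 are not astrocyte-specific: Lcn2 is abundant in neutrophil granules, Cd44 is widely used by leukocytes, and S1pr3 is known in vascular smooth muscle. The values are deposited log2 intensities, so a difference of 1 is a doubling, and levels of different probes are not compared. In sorted bulk samples, fewer cells of a type and less RNA per cell cannot be told apart.

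RefSeq gives a transcription start for all 8 genes, and the 250 bases before 4 of these starts are shown because the results below turn on these genes. S1pr3 and Aspg each rose in astrocyte samples, Steap4 is the one member with a match to a searched motif, and Lcn2 was far higher on a single microglia array than on the others. All are on build GRCm38.p6 and are written 5′ to 3′ on the gene's strand. The windows are chr13:51408368-51408617 (plus strand) for S1pr3, chr12:112106433-112106682 (plus) for Aspg, chr5:7960222-7960471 (plus) for Steap4 and chr2:32387740-32387989 (minus) for Lcn2. Capitals mark motif matches.
S1pr3: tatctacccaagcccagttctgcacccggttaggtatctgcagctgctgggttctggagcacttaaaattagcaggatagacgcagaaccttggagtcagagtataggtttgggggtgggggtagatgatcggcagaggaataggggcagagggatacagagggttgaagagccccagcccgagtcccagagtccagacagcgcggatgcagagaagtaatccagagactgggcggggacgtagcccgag
Aspg: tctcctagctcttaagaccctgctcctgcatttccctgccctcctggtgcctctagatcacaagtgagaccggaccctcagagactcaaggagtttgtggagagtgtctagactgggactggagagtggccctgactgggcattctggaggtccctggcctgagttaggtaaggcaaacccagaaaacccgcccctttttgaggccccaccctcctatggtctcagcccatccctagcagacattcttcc
Steap4: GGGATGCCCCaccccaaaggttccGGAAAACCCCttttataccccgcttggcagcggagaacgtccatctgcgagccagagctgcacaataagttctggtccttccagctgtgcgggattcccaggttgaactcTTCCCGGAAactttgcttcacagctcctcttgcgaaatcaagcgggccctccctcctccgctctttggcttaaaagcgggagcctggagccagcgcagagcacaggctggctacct
Lcn2: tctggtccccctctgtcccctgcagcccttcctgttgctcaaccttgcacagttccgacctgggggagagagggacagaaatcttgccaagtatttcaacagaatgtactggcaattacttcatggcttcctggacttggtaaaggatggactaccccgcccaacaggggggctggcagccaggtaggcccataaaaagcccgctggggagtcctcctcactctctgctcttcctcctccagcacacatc
The motifs searched, on both strands, were TTCNNNGAA, the palindrome that STAT factors recognise, and the kappaB consensus. The first was found in 2306 of 32851 RefSeq windows of this length (7.02%) and the second in 1281 (3.9%). In Steap4 the STAT-type match lay from base -116 to -108 before the start, and the kappaB matches lay from -250 to -241 and from -226 to -217. The other 7 members had no match, which says only that these letters are not in these windows. Those of Lcn2, S1pr3 and Aspg lie outside the gene's RefSeq span, while those of Cd44, Osmr, Serpina3n and Cp (2 windows) overlap it in part or whole.

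The samples matched their labels by astrocyte and microglia marker levels, within limits, but vascular markers were bright in astrocyte samples too. Sample medians ran from 6.24 to 6.26, and 32045 to 40771 of 43020 probes had a value on microglia arrays against 42427 to 42869 on astrocyte arrays. The summed level is the log2 of the sum of the listed markers' linear values, over those measured on every array. For astrocyte markers it was 19.41 to 19.57 in WT and 17.3 to 19.18 in APP/PS1 astrocyte samples, without overlap. In microglia samples it was 13.06 to 14.58. That of microglia markers was 18.76 to 19.67 in microglia and 14.33 to 15.86 in astrocyte samples. Endothelial markers summed to 17 to 18.07 in WT and 18.11 to 18.86 in APP/PS1 astrocyte samples, against 11.89 to 13.54 in microglia. Markers of pericytes and smooth muscle summed to 14.45 to 17.27 and 16.77 to 18.66 in the same 2 groups, against 8.89 to 10.58 in microglia. CD11b, used in the sort, is encoded by Itgam, whose 3 probes disagreed between WT astrocytes and WT microglia: the brightest stood at -0.44 (limma adjusted p = 0.124), and the others at -5.57 and -5.47 (adjusted p = 1.93e-13 and 2.71e-09). On 2 of 4 astrocyte arrays (replicates 1 and 3) and 2 of 7 microglia arrays (replicates 1 and 7) the paired samples differed by more than 2 log2 units in the Y-linked gene Eif2s3y, so results are also given without these arrays. All astrocyte arrays lay on 1 slide, and microglia arrays lay on 2 others.

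**Figure D1:**
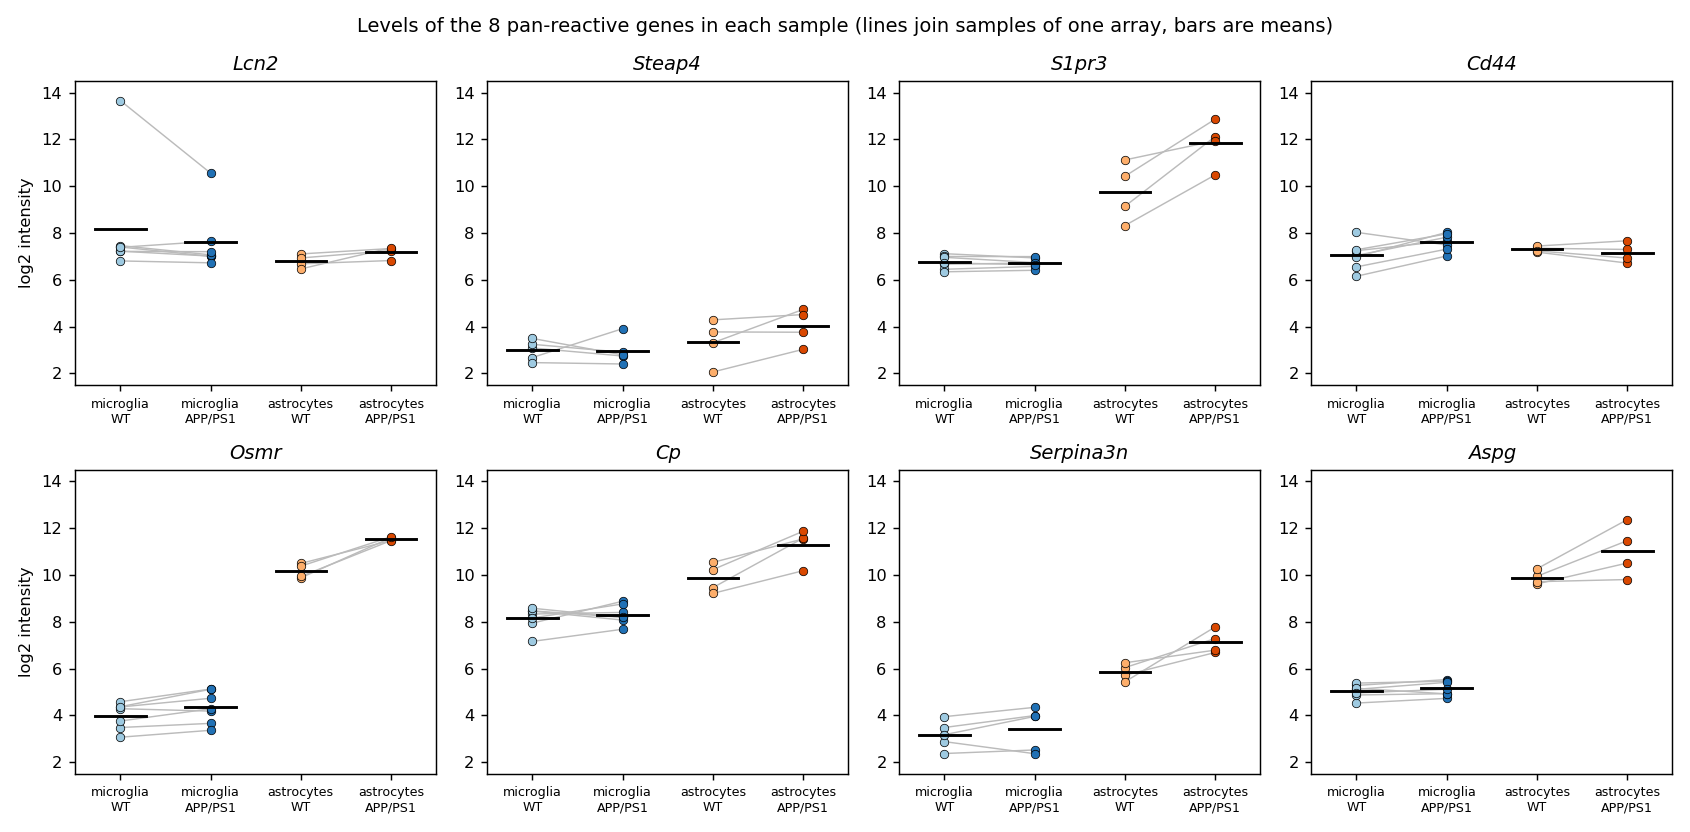
Log2 intensity (vertical axis) of the 8 genes in each sample, by cell type and genotype; lines join the WT and APP/PS1 sample of one array and bars are group means. Osmr and Serpina3n are the genes whose 4 APP/PS1 astrocyte samples all lie above the 4 WT ones, and the microglia samples of replicate 3 stand far above the rest in Lcn2.

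In astrocyte samples, 5 of the 8 genes rose in APP/PS1 mice: S1pr3, Osmr, Cp, Serpina3n and Aspg. Their fitted rises were between 1.15 and 2.10 log2 units, and each was higher on 4 of 4 arrays, as was Lcn2 (19.0% of all genes measured on every astrocyte array were higher on each, and 24.6% lower). Lcn2, Steap4 and Cd44 did not pass. None of the 8 was called lower, by limma at an adjusted p under 0.05 or at an unadjusted p under 0.05 (0 genes each). Of all 22450 genes tested, 15.4% were called higher and 18.0% lower. The median difference was 1.21 over the 8 genes and -0.0669 over all genes. Groups did not overlap for 2 of the 8, both with APP/PS1 higher, against 6.37% of genes higher and 11% lower without overlap.

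Among the receptors, S1pr3 had the largest difference. It encodes a G protein-coupled receptor for sphingosine 1-phosphate. WT astrocyte samples stood at 10.43, 9.15, 8.32 and 11.13 for replicates 1 to 4, and APP/PS1 samples at 12.87, 12.13, 10.49 and 11.94. The APP/PS1 sample was the higher one on every array, but the groups overlap, because WT replicates 1 and 4 came close to or above APP/PS1 replicate 3. The fitted rise was 2.10 ± 0.24 (SE, n = 4 arrays; 4.29-fold; limma adjusted p = 0.000301). On arrays matched in Eif2s3y the rise was 1.90 (adjusted p = 0.0306). In microglia the 7 WT samples ran from 6.34 to 7.12 (median 6.72) and the 7 APP/PS1 samples from 6.41 to 6.99 (median 6.72). These ranges coincide nearly in full, and the difference was -0.07 ± 0.19 (adjusted p = 0.858), with 3 of 7 arrays higher. Levels were thus in the order APP/PS1 astrocytes, WT astrocytes, and then both microglia groups, which did not differ beyond their spread.

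Osmr encodes the receptor chain that binds oncostatin M together with gp130. WT astrocyte samples stood at 10.49, 9.88, 9.94 and 10.38, and APP/PS1 samples at 11.47, 11.60, 11.47 and 11.63. No WT value reached the lowest APP/PS1 value, and the APP/PS1 samples were the tightest group of any member (SD 0.0828, n = 4). The rise was 1.37 ± 0.15 (2.59-fold; limma adjusted p = 0.000229), and 1.49 on arrays matched in Eif2s3y (adjusted p = 0.00789). In microglia Osmr was dim, from 3.06 to 4.58 (median 4.28) in WT and from 3.36 to 5.12 (median 4.28) in APP/PS1. There it was higher on 6 of 7 arrays by 0.36 ± 0.11, which did not pass (adjusted p = 0.0539) but passed without replicate 2 (0.44, adjusted p = 0.0321).

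Cd44 encodes the hyaluronan receptor of many migrating and immune cells, and it passed in microglia but not in astrocytes; the 2 effects did not differ past the threshold (adjusted p = 0.0504). In astrocyte samples WT values were 7.18, 7.35, 7.44 and 7.24 and APP/PS1 values 6.72, 7.30, 7.67 and 6.93. The groups overlap, and the difference was -0.15 ± 0.20 (adjusted p = 0.615). In microglia WT samples ran from 6.15 to 8.03 (median 7.04) and APP/PS1 samples from 7.02 to 8.03 (median 7.66). Cd44 rose there on 6 of 7 arrays, by 0.60 ± 0.15 (1.52-fold; limma adjusted p = 0.0201). The exception was replicate 3, at -0.54, and without that array the rise was 0.76 ± 0.09 (adjusted p = 0.000924). Leaving out replicate 4, 5, 6 or 7 ended the call (adjusted p of 0.0565, 0.0557, 0.0645 and 0.0537 in turn), and it was not reached within slide 1 (0.47, adjusted p = 0.311) or slide 2 (0.80, adjusted p = 0.103). The 3 dimmer Cd44 probes gave 0.92, 1.57 and 0.21 in microglia, none past the threshold. In astrocytes they gave 0.39, -0.44 and 1.07, so their direction in astrocytes depends on the probe.

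Among the secreted proteins, Cp and Serpina3n rose in astrocyte samples. Cp encodes ceruloplasmin, a copper ferroxidase that helps iron leave cells. WT astrocyte samples stood at 10.54, 9.46, 9.21 and 10.23 and APP/PS1 samples at 11.54, 11.57, 10.18 and 11.87. Only APP/PS1 replicate 3 fell within the WT range, and it was the array where both samples were lowest. The rise was 1.43 ± 0.25 (2.70-fold; limma adjusted p = 0.00206), and 1.88 on arrays matched in Eif2s3y (adjusted p = 0.0147). The dimmer Cp probe gave 1.25. In microglia, where WT ran from 7.16 to 8.58 (median 8.33) and APP/PS1 from 7.68 to 8.88 (median 8.19), the difference was 0.17 ± 0.19 (adjusted p = 0.601).

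Serpina3n encodes a secreted serine protease inhibitor related to alpha-1 antichymotrypsin. WT astrocyte samples stood at 5.71, 6.04, 5.43 and 6.25 and APP/PS1 samples at 6.69, 7.28, 7.78 and 6.79, and the groups did not overlap. The rise was 1.28 ± 0.30 (2.42-fold; limma adjusted p = 0.0129), largest on replicate 3 (2.35) and smallest on replicate 4 (0.54). The call was lost without replicate 2 (1.24, adjusted p = 0.0572), on arrays matched in Eif2s3y (0.89, adjusted p = 0.155), without the array block (adjusted p = 0.0807) and with astrocytes fitted alone (adjusted p = 0.0798). In microglia it had values on 5 of 7 arrays, replicates 1, 3, 5, 6 and 7. WT values there were 3.48, 2.36, 2.87, 3.94 and 3.17, and APP/PS1 values 3.99, 2.52, 2.36, 4.34 and 3.95. These are near the dim end of the table, and the difference was 0.34 ± 0.30 (adjusted p = 0.496).

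Lcn2 encodes lipocalin 2, a siderophore-binding protein. In astrocyte samples WT stood at 7.11, 6.68, 6.93 and 6.46 and APP/PS1 at 7.34, 6.82, 7.25 and 7.37. The APP/PS1 sample was higher on 4 of 4 arrays, but by 0.40 ± 0.43 (adjusted p = 0.533). In microglia the WT samples ran from 6.81 to 13.67 (median 7.39) and the APP/PS1 samples from 6.73 to 10.56 (median 7.07). Both maxima belong to replicate 3, and no other microglia sample exceeded 7.65. The difference was -0.52 ± 0.33 (adjusted p = 0.329), and -0.14 without replicate 3 (adjusted p = 0.496).

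Neutrophil genes were high in the WT sample of replicate 3. In WT microglia replicate 3 the calprotectin genes S100a8 and S100a9 stood at 16.47 and 17.72, against at most 10.07 and 11.65 in the other WT microglia samples. The granule genes Ngp, Camp and Ltf, singled out after their values were seen, stood there at 13.47, 15.49 and 14.14. In APP/PS1 replicate 3 Ngp and Ltf stood at 8.06 and 7.49, above the other APP/PS1 microglia samples (at most 6.07 and 6.56). Camp at 8.13 and S100a8 at 7.98 lay within the range of those samples. The summed level of the 10 neutrophil markers measured on every array was 18.79 in WT replicate 3 and 14.69 to 15.49 in the other WT microglia samples. In APP/PS1 replicate 3 it was 14.8, within the 14.28 to 15.16 of the other APP/PS1 samples. Csf3r, one of the genes summed, had a mean of 15.17 over all samples, and the sum was 16.02 to 16.32 in WT astrocytes. Granule genes as dim as those of APP/PS1 replicate 3 would hardly move such a sum, so it says little about them. Over the 11 listed, 1 gene, Csf3r, was called, lower in APP/PS1, near the 11.4% of all genes called lower in microglia. The part of these genes in the Lcn2 values was not tested.

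**Figure D2:**
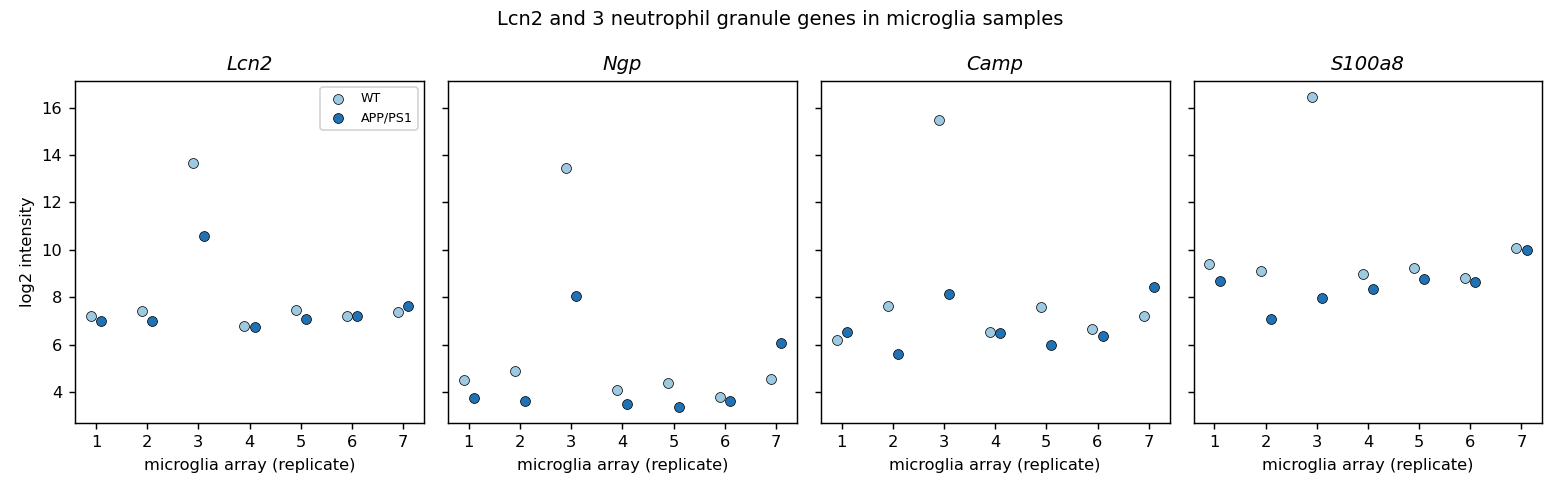
Log2 intensity (vertical axis) of Lcn2 and of the neutrophil genes Ngp, Camp and S100a8 in each microglia sample, by array replicate (horizontal axis) and genotype. The WT sample of replicate 3 is the highest in all panels, with Lcn2 at 13.67 and Camp at 15.49.

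Of the enzymes, Aspg rose in astrocyte samples and Steap4 did not pass. Aspg encodes an asparaginase. WT samples stood at 9.62, 9.95, 10.27 and 9.71 and APP/PS1 samples at 10.51, 11.47, 12.37 and 9.80. The WT samples were close together, and the APP/PS1 samples spread from replicate 4, inside the WT range, to replicate 3. The array differences were therefore uneven, at 0.89, 1.52, 2.10 and 0.09, for a rise of 1.15 ± 0.25 (2.22-fold; limma adjusted p = 0.00625). Without replicate 3 the rise was 0.76 (adjusted p = 0.0144). The call was lost on arrays matched in Eif2s3y (0.81, adjusted p = 0.0876), without the array block (adjusted p = 0.051) and with astrocytes fitted alone (adjusted p = 0.123). Microglia WT samples ran from 4.52 to 5.38 (median 5.11) and APP/PS1 samples from 4.72 to 5.53 (median 5.11), with a difference of 0.10 ± 0.19 (adjusted p = 0.77).

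Steap4 encodes a metalloreductase of iron and copper. It was dim in both cell types. WT astrocyte samples stood at 3.77, 3.31, 2.06 and 4.29 and APP/PS1 samples at 3.76, 4.73, 3.03 and 4.51, a difference of 0.65 ± 0.34 (adjusted p = 0.19). On replicates 2 and 3 the APP/PS1 sample was clearly the higher one, by 1.42 and 0.97, and on replicate 1 the pair was level. Microglia had values on replicates 1, 3, 4, 6 and 7, at 2.68, 3.08, 2.46, 3.24 and 3.49 in WT and 3.91, 2.74, 2.40, 2.90 and 2.79 in APP/PS1. The difference was -0.06 ± 0.31 (adjusted p = 0.923), and its sign turned without replicate 3, 6 or 7.

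In microglia as a whole, 1 of the 8 genes was called higher (Cd44) and 0 lower by limma, and at an unadjusted p under 0.05 the counts were 2 and 0. Of all 22380 genes tested, 8.28% were called higher and 11.4% lower. The members' median difference was 0.14 and that of all genes -0.0365. Groups overlapped for all 8, against 2.85% of genes without overlap and APP/PS1 higher and 1.56% lower. A count of 1 of 8 is near the background share.

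The test of the difference between the astrocyte and the microglia effect was passed by 4 of the 8 genes, all with the larger effect in astrocytes (13.4% of all genes passed in that direction and 13.2% in the other). S1pr3 differed by 2.17 (limma adjusted p = 0.000868), Cp by 1.26 (adjusted p = 0.0165), Aspg by 1.05 (adjusted p = 0.0357) and Osmr by 1.02 (adjusted p = 0.00349). Serpina3n, at 0.93, did not pass (adjusted p = 0.15), so its call in astrocytes does not show an effect different from that in microglia. Cd44, at -0.75, fell just short (adjusted p = 0.0504). Lcn2 (0.92) and Steap4 (0.71) did not pass. The Cp call was lost without astrocyte replicate 2 (0.92, adjusted p = 0.0555), and the Aspg call without replicate 2 (0.93, adjusted p = 0.114) or 3 (0.68, adjusted p = 0.0513). Without the array block S1pr3 alone passed.

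**Figure D3:**
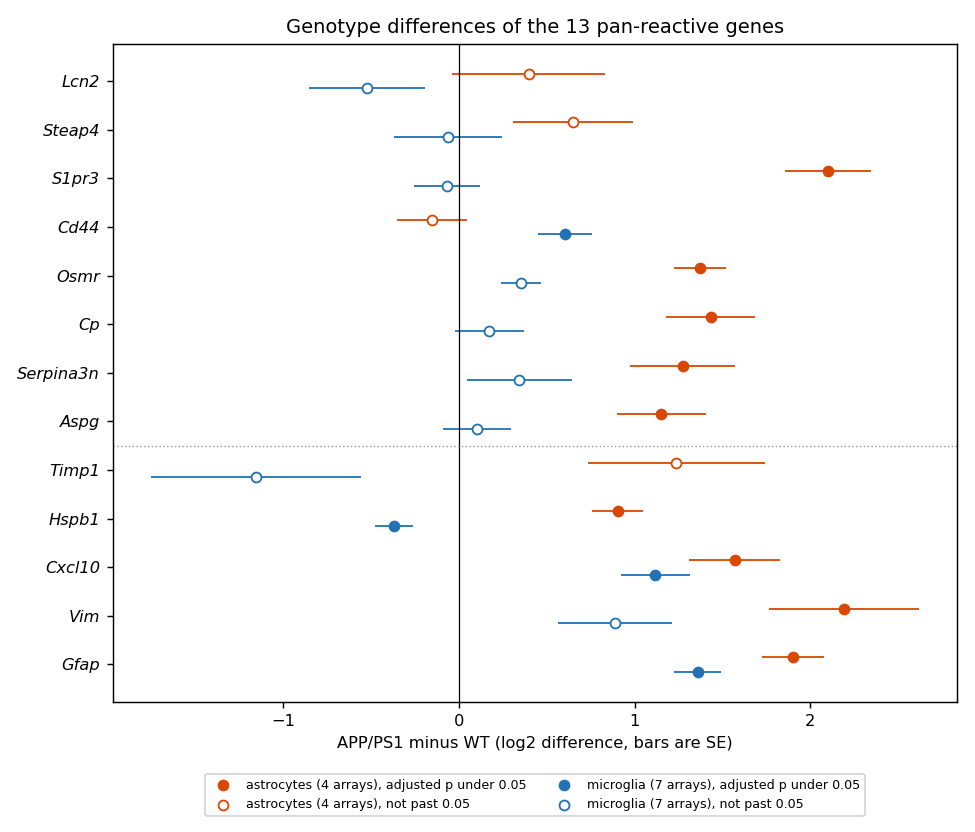
Fitted log2 difference, APP/PS1 minus WT (horizontal axis), with its SE for the 8 genes and, below the dotted line, the 5 other pan-reactive genes, in astrocytes (4 arrays) and microglia (7 arrays); filled points passed an adjusted p of 0.05. The astrocyte points of S1pr3, Osmr, Cp, Serpina3n and Aspg are filled and lie above 1, while among the 8 genes only Cd44 is filled in microglia.

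Between WT astrocytes and WT microglia, 5 of the 8 genes were higher in astrocytes and 0 lower (limma, also at an unadjusted p under 0.05), against 34.1% of all genes higher and 17.4% lower. Osmr was higher by 6.19 log2 units, Aspg by 4.84, S1pr3 by 2.99, Serpina3n by 2.73 and Cp by 1.71 (limma adjusted p = 6.72e-13, 7.92e-10, 3.56e-06, 0.000143 and 0.000667). The Cp call was lost with its 2 probes averaged (1.10, adjusted p = 0.129) and with slide as a random block (1.70, adjusted p = 0.0967). Lcn2 (-1.35), Steap4 (0.36) and Cd44 (0.28) did not pass, and the signs of Steap4 and Cd44 turned when columns were centred on their medians. The median of all genes was 0.338 here and that of the members 2.22. Centring moved the all-gene median to -0.078 and the split of all calls from 7638 higher and 3903 lower to 6076 and 6800. Because astrocytes had a slide of their own, an effect of the slide cannot be told apart from cell type.

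The remaining 5 genes of the pan-reactive list gave 4 rises in astrocyte samples, where 15.4% of all genes rose. The intermediate filament genes Vim and Gfap rose by 2.19 ± 0.43 and 1.90 ± 0.18, the chemokine gene Cxcl10 by 1.57 ± 0.26 and the small heat shock protein gene Hspb1 by 0.90 ± 0.14 (limma adjusted p = 0.00329, 0.000145, 0.00137 and 0.00121). Timp1, a metalloproteinase inhibitor gene, stood at 1.24 ± 0.50 (adjusted p = 0.119). Gfap is the reference gene of reactive astrocytes: its WT samples stood at 7.57, 7.89, 7.57 and 7.43 and its APP/PS1 samples at 9.02, 9.80, 10.18 and 9.05, without overlap. In microglia samples Gfap and Cxcl10 also rose, by 1.36 ± 0.13 and 1.12 ± 0.20, and Hspb1 fell by 0.37 on the log2 scale (adjusted p = 0.000112, 0.00327 and 0.0424). The Hspb1 call in microglia was lost in 11 of 20 alternatives. Vim (0.89) and Timp1 (-1.15, measured on 3 arrays) did not pass there. Between WT cell types 3 of these 5 genes were higher in astrocytes and 1 lower, against 34.1% and 17.4% of all genes. The lower one was Cxcl10 (-4.55, limma adjusted p = 2.68e-10).

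The ligand and signalling genes around Osmr are those of gp130 and STAT3. In astrocyte samples 9 of 15 rose and 1 fell (median 0.481), against 15.4% and 18.0% of all genes. The shared receptor chain gene Il6st, which encodes gp130, rose by 1.07 ± 0.15, the feedback inhibitor gene Socs3 by 1.32 ± 0.13 and the immediate early gene Junb by 1.51 ± 0.20 (limma adjusted p = 0.000638, 0.000185 and 0.000456). The count of rises was 6 without the array block and 4 with astrocytes fitted alone. Of all genes, 1388 of 22450 and 1490 of 22416 were called higher in these 2 fits. Osm, the ligand of Osmr, stood at 0.24 ± 0.25 in astrocytes (adjusted p = 0.505) and 0.46 ± 0.19 in microglia (adjusted p = 0.125), and the level of Osm in WT samples was lower in astrocytes (astrocytes minus microglia -5.64, adjusted p = 1.19e-11). Of the 15 genes, 2 were higher and 11 lower in WT astrocytes than in WT microglia (limma, unadjusted p under 0.05). At an adjusted p under 0.05, 34.1% of all genes were higher and 17.4% lower. Socs3 had a mean of 9.49 in WT astrocytes and 14.75 in WT microglia. The part of microglia in the rises of this list in astrocyte samples was not tested. In microglia 3 of the 15 rose and 5 fell (0 and 2 without the array block), against 8.28% and 11.4% of all genes. Without the block, 741 of 22380 genes were called higher in microglia and 448 lower. Cntf, which encodes ciliary neurotrophic factor, rose by 0.99 ± 0.11 there, the interleukin 6 receptor gene Il6ra fell by 0.80 on the log2 scale, and Socs3 stood at -0.55 ± 0.10. The astrocyte and microglia effects on Socs3 differed by 1.87 (adjusted p = 9.43e-05) and those on Il6st by 1.05 (adjusted p = 0.003).

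**Figure D4:**
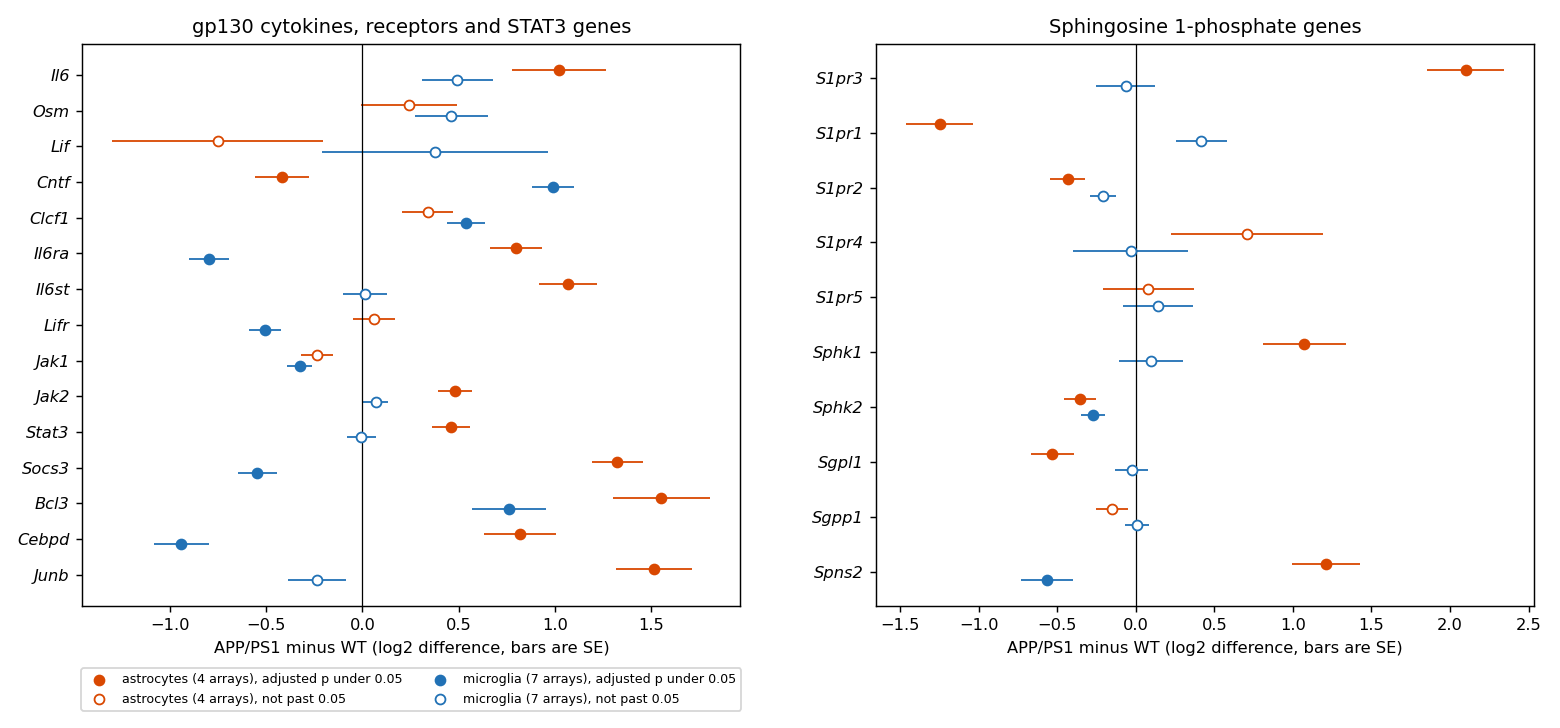
Fitted log2 difference, APP/PS1 minus WT (horizontal axis), with its SE for 15 genes of gp130 and STAT3 signalling (left) and for S1pr3 with 9 sphingosine 1-phosphate genes (right), in astrocytes and microglia; filled points passed an adjusted p of 0.05. Socs3 stands at 1.32 in astrocytes and -0.55 in microglia, and S1pr3 at 2.10 beside S1pr1 at -1.25 in astrocytes.

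The other sphingosine 1-phosphate genes did not follow S1pr3 as a set. Of 9 measured, 2 rose and 4 fell in astrocyte samples, where 15.4% of all genes were called higher and 18.0% lower. A count of 2 of 9 is near the background share. S1pr1, a related receptor gene, fell by 1.25 on the log2 scale (SE 0.21, limma adjusted p = 0.00169). The kinase gene Sphk1, whose product makes sphingosine 1-phosphate, rose by 1.07 ± 0.27 and the exporter gene Spns2 by 1.21 ± 0.22 (adjusted p = 0.0114 and 0.00211). In microglia 0 rose and 2 fell by limma, Sphk2 (-0.27) and Spns2 (-0.56), and at an unadjusted p under 0.05 the counts were 1 and 3. Of all genes 8.28% were called higher and 11.4% lower in microglia. The fall of Spns2 there did not pass without the array block, where 0 of the 9 passed.

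For the partners of the remaining members, receptors and close relatives mostly fell or did not pass in astrocyte samples. Slc22a17, which encodes a lipocalin 2 receptor, fell by 1.54 on the log2 scale (adjusted p = 0.000598), while the other receptor gene Lrp2 stood at 0.83 (adjusted p = 0.0695) and the siderophore synthesis gene Bdh2 fell by 0.65 (a call lost in 6 of 13 alternatives). Of 7 genes of metal reduction and export, 1 rose and 4 fell, against 15.4% and 18.0% of all genes. Heph, the closest relative of Cp, fell by 1.03, and the Steap4 relatives Steap1, Steap2 and Steap3 fell by 0.57, 0.70 and 0.62 (calls lost in 8 of 13, 4 of 13 and 1 of 15 alternatives, with Steap2 at -0.03 in one of them). The iron exporter gene Slc40a1 rose by 0.97 ± 0.22 and fell in microglia by 1.09. Around Cd44, 1 of 5 measured genes rose in astrocytes, near the 15.4% of all genes. It was the hyaluronan synthase gene Has2 (0.83 ± 0.24, a call lost in 6 of 13 alternatives). Hyal2 fell by 0.41 in microglia (lost in 8 of 20). None of the 5 measured neighbours of Serpina3n in its gene cluster passed in either cell type by limma, at an adjusted or an unadjusted p under 0.05 (0 each), with differences of -0.25 to 0.32 in astrocytes. Beside Aspg, the asparagine synthetase gene Asns rose by 1.56 ± 0.39 (adjusted p = 0.0123) and the aspartoacylase gene Aspa fell by 0.69.

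Markers of vascular cells were higher in the same APP/PS1 astrocyte samples, where 15.4% of all genes were called higher and 18.0% lower. Of 13 endothelial markers 12 rose and 0 fell (median 1.12; by limma, with the same counts at an unadjusted p under 0.05), with Pecam1 at 1.12 ± 0.18, Emcn at 1.39 ± 0.24 and Slco1a4 at 1.41 ± 0.30. Their summed level ran from 17 to 18.07 in WT and from 18.11 to 18.86 in APP/PS1 samples, without overlap. The count was 6 without replicate 2, 7 without replicate 4, 3 without the array block and 2 with astrocytes fitted alone. Of all genes, 2679 of 22308, 2932 of 22327, 1388 of 22450 and 1490 of 22416 were called higher in these fits in turn. Of 12 mural markers (pericytes and smooth muscle) 8 rose and 0 fell (median 1.92; 11 and 0 at an unadjusted p under 0.05), with Myh11 at 2.46 ± 0.17, Higd1b at 2.05 ± 0.29 and Abcc9 at 1.55 ± 0.21. Their summed level ran from 14.45 to 17.27 in WT and from 16.77 to 18.66 in APP/PS1. The mural count was 4 on arrays matched in Eif2s3y, where the median was 1.76 and 1981 of 20416 genes were called higher. Of 8 vascular fibroblast markers 4 rose and 0 fell (median 0.631). Col1a2 at 0.87 ± 0.13 and Fmod at 1.43 ± 0.23 were among the rises, while Col1a1 stood at -0.81 ± 0.37 (limma adjusted p = 0.123). The median of this list was 0.465, 0.597, -0.0834 and 1.28 on replicates 1 to 4. In microglia samples 1 of 13 endothelial markers (Flt1) and 0 of 12 mural markers were called higher by limma, and the counts were the same at an unadjusted p under 0.05. Of all genes 8.28% were called higher in microglia.

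Array by array, S1pr3 and the mural markers had like differences. S1pr3 differed by 2.44, 2.98, 2.17 and 0.82 on replicates 1 to 4, and the median mural marker by 1.67, 3.07, 2.18 and 0.731. Both were highest on replicate 2 and lowest on replicate 4. In level too, WT replicates 1 and 4 were the high WT samples for S1pr3, for the mural sum (17.07 and 17.27) and for the smooth muscle myosin gene Myh11 (13.17 and 13.08, against 11.10 and 10.55). This was not particular to S1pr3. WT replicates 1 and 4 were also the high ones for Osmr (10.49 and 10.38), Cp (10.54 and 10.23) and Steap4 (3.77 and 4.29). For Serpina3n and Aspg they were not. The endothelial median was 0.275, 1.51, 0.924 and 1.89, an order unlike that of S1pr3 but like that of Cp in having its upper values on replicates 2 and 4 (Cp 1.00, 2.12, 0.97 and 1.64). Osmr, at 0.98, 1.72, 1.54 and 1.26, varied least. Serpina3n (0.97, 1.24, 2.35 and 0.54) and Aspg (0.89, 1.52, 2.10 and 0.09) were highest on replicate 3, where Gfap was highest as well (1.46, 1.91, 2.61 and 1.62). Serpina3n and Aspg were lowest on replicate 4, as the mural markers were, while Gfap was lowest on replicate 1. Vim, another pan-reactive gene (1.91, 3.31, 2.40 and 1.16), ranked the arrays as the mural median did. The part of vascular cells in the members' rises was not tested.

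**Figure D5:**
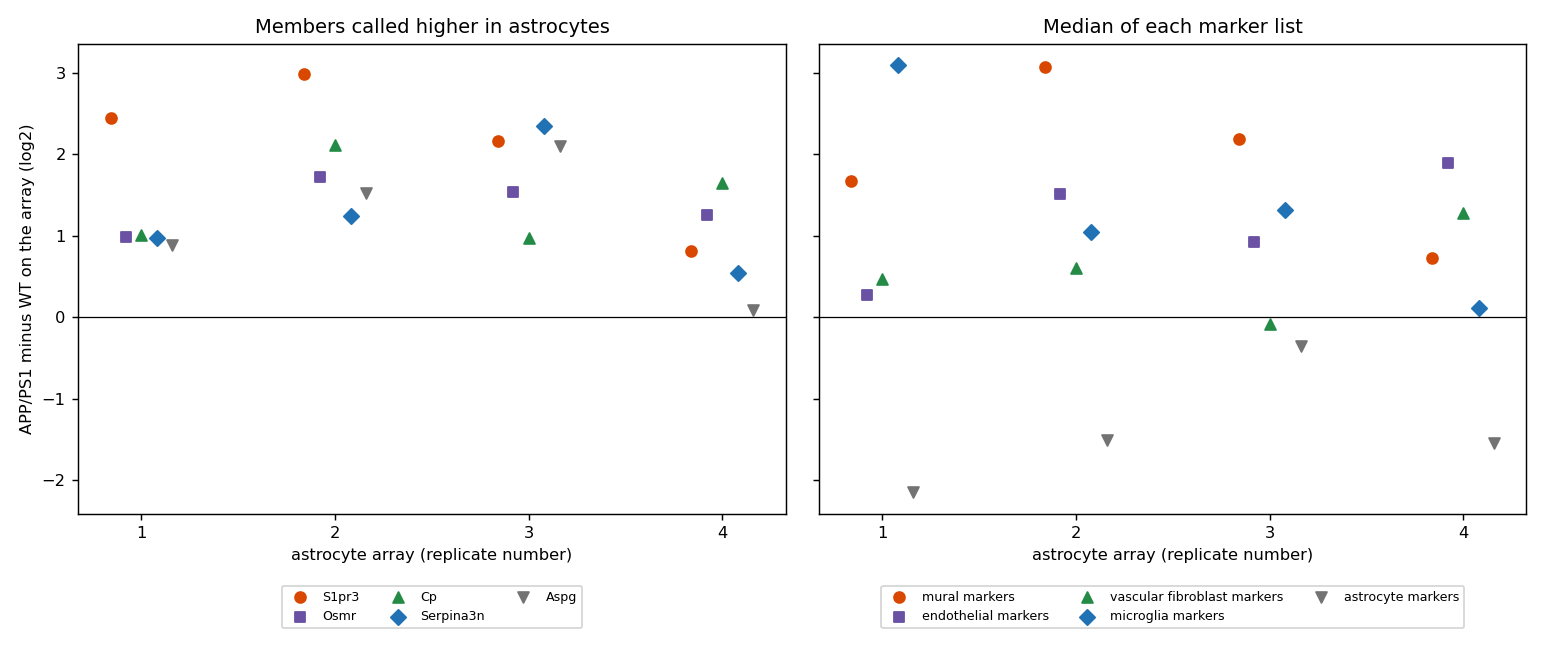
Log2 difference, APP/PS1 minus WT, on each astrocyte array (horizontal axis, replicate number) for the 5 genes called higher (left) and as the median of 5 marker lists (right). S1pr3 and the mural markers are both lowest on array 4 (0.82 and 0.731), and Serpina3n and Aspg are highest on array 3.

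Other markers moved in these samples as well, where 15.4% of all genes were called higher and 18.0% lower. All 14 astrocyte markers fell (median -1.35), the brightest being Glul and Aldoc at -1.21 ± 0.18 and -1.36 ± 0.28. Their array medians were -2.15, -1.51, -0.354 and -1.55, so the members rose in samples where markers of astrocytes in general were lower. Of 14 microglia markers 10 rose and 3 fell (median 1.59, by array 3.09, 1.05, 1.32 and 0.111), the brightest being Csf1r at 1.61 and Siglech at -0.77. Their summed level did not follow the median. It stood at 14.88, 14.96, 15.86 and 14.98 in WT and at 15.41, 14.33, 15.51 and 14.55 in APP/PS1 samples. The APP/PS1 sum was thus higher on replicate 1 and lower on replicates 2, 3 and 4. The 5 called members were dimmer in WT microglia than in WT astrocytes, as given above. The part of either marker list in the members' differences was not tested.

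Genes whose levels were most like each member over the samples were named by Pearson's r, as a description. For S1pr3 they were Slc16a11 (r = 0.997) and Wnt5b (0.996), for Osmr Slc9a3r2 (0.996) and Jcad (0.995), and for Aspg Rab11fip3 and Mindy1 (0.98 each), over 22 samples. For Cp they were Tmem45a (0.975) and Ybx3 (0.973), for Lcn2 the leukocyte granule genes Prg2 (0.971) and Mpo (0.931), and for Cd44 Aurka (0.847) and Fcho1 (0.84). For Serpina3n they were Dync1i1 (0.974) and Prss56 (0.967) and for Steap4 Eftud2 (0.882) and Pitpnb (0.876), over the 18 samples with a value. The samples share arrays and fall into 2 cell types, so these points are not independent. Over the 11 within-array differences in place of levels, 0 of these 16 genes stayed among the closest 2. S1pr3 was then closest to Arhgap45 (0.997) and to the smooth muscle myosin kinase gene Mylk (0.996), with r over levels of -0.788 and 0.988. Aspg was closest to the tropomyosin gene Tpm2 (0.959, and 0.935 over levels) and to Crocc (0.956, and 0.545 over levels). The closest gene was Nsg2 (0.948) for Osmr, Rpl14 (0.936) for Cp, Gm5828 (0.972) for Serpina3n, Rgcc (0.969) for Cd44 and Klk1b24 (0.886) for Steap4. On microglia arrays S1pr3 differed by only -0.23 to 0.12 and Aspg by -0.24 to 0.30. Their r over differences therefore also reflects the split into 2 cell types. Lcn2 was closest to the granule gene Pglyrp1 (0.99, but 0.133 over levels). The Lcn2 difference was -3.10 on microglia replicate 3 and from -0.40 to 0.91 on all other arrays, so its r rests largely on 1 array.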

How the data were processed

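Per the labels, RNA of sorted cells was linearly amplified, labelled with Cy3 or Cy5 and hybridised to dual-colour Agilent arrays, each holding an APP/PS1 and a WT sample that share a replicate number. APP/PS1 samples were in Cy5 on 2 of 4 astrocyte and 3 of 7 microglia arrays. The authors deposited single-channel log2 values. The submitters' processing notes name limma, and its normalization steps are not stated in any source used here. Of 43020 probes 33026 name 1 gene.

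Genotype effects were fitted with limma 3.58.1 (R 4.3.3, statmod 1.5.0) over all genes and 22 samples, with terms for array (fixed block), dye, and the genotype effect within each cell type. Cell types were compared by group means with array as a random block (correlation 0.727). All p-values are two-sided and adjusted over all genes after Benjamini and Hochberg, with a threshold of 0.05. The labels pair the samples of an array. Same-array samples, centred within groups, correlated at a median of 0.473 in microglia and 0.2265 in astrocytes. The number of arrays limits precision. No source says which mice the samples came from beyond calling them biological replicates. Scripts were tested on simulated data. Python 3.11.15 with pandas 2.3.3 and matplotlib 3.10.9 gave the tables and figures.

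Named genes were the 8 members, the 5 other pan-reactive genes, the partner genes of smallest adjusted p or with a role as receptor, ligand or relative, the brightest or most significant markers, and the 2 genes most like each member. Members, lists and this rule were chosen with earlier results of these data known. Alternatives changed the block, dye term, scaling, probe choice, gene filter, variance prior and arrays used.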

Additional observations from a re-analysis of the deposited data

Results flagged for a closer look

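Of 48 sets of member values (each group's levels and each cell type's array differences), 4 held a sample farther from the others than Dixon's 95% critical value. Chance gives about 1 in 20 sets, but the sets are not independent, because each array difference is taken from levels that were also tested. All 4 flagged values were of replicate 3 of the microglia samples, so they are not separate events. Lcn2 stood at 13.67 in the WT sample and at 10.56 in the APP/PS1 sample, and its difference on that array was -3.10. Cd44 differed by -0.54 there and was higher in APP/PS1 on the other 6 microglia arrays. The astrocyte effect exceeded the microglia effect for S1pr3 by 2.17, for Cp by 1.26, for Aspg by 1.05 and for Osmr by 1.02, by limma's interaction contrast.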

How the results depend on the processing

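The rises of S1pr3, Osmr and Cp in astrocytes passed under every alternative run for them (15, 15 and 16). Of the 8 members, 5 were called higher in astrocytes; the count was 3 with no replicate block, 3 with each cell type fitted alone, 3 on arrays matched in Eif2s3y, and 4 to 5 without 1 replicate. In microglia the count of 1 became 0 with no replicate block, with all probes of a gene averaged, within slide 1, within slide 2 and on matched arrays. It became 2 with no dye term, on genes measured on all arrays, on genes above the median gene and with microglia fitted alone, and ran from 0 to 2 without 1 replicate. For the difference of effects the count of 4 higher was 1 with no replicate block and 2 to 4 without 1 replicate. The count of 0 lower was 1 with the replicate block as a random effect, with centred columns, on genes measured on all arrays and on genes above the median gene. Fewer samples or genes enter the fits on part of them; for the rest the cause was not tested. Without the block 1388 genes were called higher and 1059 lower in astrocytes (3467 and 4050 with it), 741 and 448 in microglia (1853 and 2557) and 794 and 704 for the difference (3007 and 2950). Astrocytes fitted alone gave 1490 and 1368, matched arrays 1981 and 2035 in astrocytes and 1163 and 1226 in microglia, slide 1 gave 666 and 503, slide 2 gave 0 and 0, and slide as a random block gave 4811 and 2361 between cell types (7638 and 3903).

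Single members kept direction and side of the threshold in 396 of the settings tried, lost a call in 27, gained one in 9 and changed sign in 14; the sign changes were of uncalled values. With centred columns Steap4 between cell types was -0.0786 and Cd44 -0.186, and with averaged probes Cd44 was -0.429 there and 0.0406 in astrocytes. Other Cd44 probes gave 0.387 and 1.07 in astrocytes. In microglia Steap4 ran from -0.361 to 0.123 without 1 replicate and was 0.0329, 0.00338 and 0.123 without replicate 3, 6 or 7, Cp was -0.0464 within slide 1, and within slide 2 Lcn2 was 0.00533, S1pr3 0.0252 and Aspg -0.0176, with S1pr3 at 0.0103 on matched arrays. Dim probes near the floor of the table (Steap4, Serpina3n and Osmr in microglia) limit what these arrays can show.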
